A study of Homo sapiens with 54 samples.

Results

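MYC, AP-1 and the immediate early genes were followed here as 10 genes of the UMI table: MYC, JUN, JUNB, JUND, FOS, FOSB, EGR1, EGR2, IER2, and DUSP2. They were found by matching Ensembl identifiers to symbols, and all 10 were present once among the 31835 identifiers. The cells were OCI-Ly1, an established human B cell lymphoma line carrying t(14;18), stably transduced with a vector in which a CMV promoter drives Flag-tagged STAT6. The vector coded for STAT6 WT (n = 9 at each time point) or for D419G, D419N, or N421K (n = 3 each), amino acid changes in the DNA-binding domain, and the 3 mutants together are called STAT6 MUT (n = 9). All lines kept the STAT6 of OCI-Ly1, which has a variant of its own in the DNA-binding domain, and received IL-4 at 10 ng/ml for 20 min, were washed, and were taken 2, 4, or 8 h later, giving 54 libraries. No library was taken without IL-4 or before it, so each value below is a level after the pulse and not an induction by it. The number of separate transductions behind a line is not stated, so a mutation and its line cannot be told apart.

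Immediate early genes are transcribed within minutes of a signal, without new protein synthesis, mostly by transcription factors already present that kinases activate, and their short-lived mRNAs fall again soon after. JUN, JUNB, and JUND pair with FOS and FOSB to form the dimeric factor AP-1. EGR1 and EGR2 are zinc finger factors of the same early wave, IER2 is a small nuclear protein, DUSP2 is a nuclear phosphatase that removes phosphate from MAP kinases, and MYC drives growth and ribosome production. STAT6 itself is phosphorylated downstream of the IL-4 receptor and binds palindromes of TTC and GAA. In germinal center B cells these genes respond to B cell receptor, CD40, and cytokine signals.

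The libraries held between 161518 and 2978715 UMIs, with a median of 885258.5, and 8 fell under 0.5 of that median. A UMI marks 1 captured mRNA molecule at its 3′ end, and levels are given as CPM, counts scaled by TMM to a common library total. All 13 B cell markers were detected, MS4A1, CD79B, and PAX5 among them, whereas CD3G, GNLY, LYZ, and CD14 each had between 2 and 12 UMIs over all libraries. The 6 of 14 T cell, NK cell, and myeloid markers in the table summed to 31.0 to 63.2 CPM in STAT6 WT and to 17.5 to 68.4 CPM in STAT6 MUT libraries, and 0 of the 2 that could be tested passed in any comparison. The T cell genes TRAC and CD247 were at about 30.2 and 13.8 CPM in STAT6 MUT and at 29.3 and 13.9 CPM in STAT6 WT. In a bulk library, fewer cells that express a gene and less of its RNA per cell cannot be told apart.

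Of the 10 genes, 5 had counts high enough to be tested: MYC, JUNB, JUND, IER2, and DUSP2. The filter left out the other 5 in every comparison. Over all 54 libraries JUN had 83 UMIs, FOS 36, FOSB 32, EGR1 19, and EGR2 6. They are described by their UMIs at the end.

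The stretch before the start site is shown for JUNB, IER2, and DUSP2, which were lower together in STAT6 MUT at 2 h, and for JUND, which was not. The 250 bases before each start come from RefSeq on GRCh38.p14, 5′ to 3′ on the strand of the gene. Capitals mark the half-site of the cAMP response element (CRE), TGACG, on either strand.
JUNB (chr19:12791236-12791485, plus strand): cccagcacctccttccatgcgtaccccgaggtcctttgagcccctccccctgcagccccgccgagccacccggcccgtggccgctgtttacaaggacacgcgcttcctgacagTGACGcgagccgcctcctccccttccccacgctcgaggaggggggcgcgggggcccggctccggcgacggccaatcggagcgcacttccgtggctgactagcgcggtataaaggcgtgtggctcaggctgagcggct
IER2 (chr19:13150161-13150410, plus strand): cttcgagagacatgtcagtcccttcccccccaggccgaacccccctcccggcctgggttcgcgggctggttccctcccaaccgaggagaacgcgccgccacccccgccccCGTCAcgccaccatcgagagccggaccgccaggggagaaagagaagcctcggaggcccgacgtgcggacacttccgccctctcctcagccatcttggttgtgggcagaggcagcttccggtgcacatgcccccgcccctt
DUSP2 (chr2:96145441-96145690, minus strand): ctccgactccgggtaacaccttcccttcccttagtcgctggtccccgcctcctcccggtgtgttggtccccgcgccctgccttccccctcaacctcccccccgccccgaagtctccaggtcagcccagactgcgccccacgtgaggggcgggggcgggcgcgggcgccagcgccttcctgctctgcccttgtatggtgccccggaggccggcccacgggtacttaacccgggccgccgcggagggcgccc
JUND (chr19:18281623-18281872, minus strand): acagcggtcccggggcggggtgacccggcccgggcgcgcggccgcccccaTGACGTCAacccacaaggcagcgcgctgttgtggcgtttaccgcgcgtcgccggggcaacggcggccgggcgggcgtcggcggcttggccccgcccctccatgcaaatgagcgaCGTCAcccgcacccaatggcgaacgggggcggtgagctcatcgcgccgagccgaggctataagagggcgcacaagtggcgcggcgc
The searches covered 300 bases, the 250 before and 50 after each start, in 35116 promoters and on both strands. JUNB held 1 half-site, starting at -137 from the start site, and IER2 held 1 at -140. JUND held a full CRE, TGACGTCA, at -200, which contains a half-site on each strand, and a further half-site at -86. DUSP2 held none of these and had an E-box, CACGTG, the kind of site that MYC with MAX binds, at -113. A half-site was present in 24.6% of all promoters, a full CRE in 1.85%, and an E-box in 7.26%. The spacing that STAT6 prefers, TTCNNNNGAA, in 6.44% of all promoters, was matched in 0 of these 4, and so were the CArG box of serum response factor (1.29%), the general STAT spacing TTCNNNGAA (7.66%), and the AP-1 site TGACTCA (4.95%). These matches describe letters in a short window and say nothing of binding. The table of promoters held 9 of the 10 genes, with MYC not among them. Of the members not shown, EGR1 held 2 CArG boxes and 1 TTCNNNGAA. EGR2 held 1 CArG box at 1 start site and an E-box, at -30, at another. JUN, FOS, FOSB, EGR1, and EGR2 also held half-sites.

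At 2 h after the pulse, 4 of the 5 genes tested were lower in STAT6 MUT than in STAT6 WT cells. For DUSP2 and MYC all 9 STAT6 MUT libraries were below every STAT6 WT library, for IER2 8 of 9 were, and for JUNB 2 of 9. JUND did not pass the test. Among the 8651 genes tested at 2 h, 4.67% were lower at an adjusted p under 0.05. The members were chosen with earlier results of these data known. Counts of members called, here and below, are thus a description and not an independent test.

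DUSP2 lay at 25.7 to 48.4 CPM in STAT6 WT at 2 h (median 34.5, mean 36.5 ± 8.34, SD, n = 9). In STAT6 MUT it lay at 10.5 to 22.6 CPM (median 15.3, mean 15.4 ± 3.20, n = 9), and the groups did not overlap. The mean in STAT6 MUT was 42.3% of that in STAT6 WT. The log2 fold change was -1.07 ± 0.15 (SE), with an edgeR adjusted p of 3.05e-07, which placed it 29th by p of the 8651 genes. The means of the lines lay close together, at 15.1 ± 1.23 CPM in D419G, 16.1 ± 6.12 in D419N, and 15.1 ± 1.06 in N421K (n = 3 each).

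MYC lay at 112 to 136 CPM in STAT6 WT at 2 h (median 118, mean 120 ± 8.75, n = 9). In STAT6 MUT it lay at 60.3 to 108 CPM (median 86.8, mean 85.6 ± 16.97, n = 9), again with no overlap. The log2 fold change was -0.55 ± 0.088, with an edgeR adjusted p of 9.13e-06. Among the lines D419N was nearest to STAT6 WT, at 101 ± 10.7 CPM, and D419G and N421K were at 80.1 ± 17.6 and 75.5 ± 12.8 CPM (n = 3 each). Whether the lines differed at 2 h was not tested. Complete separation of the groups with STAT6 MUT below was seen for 32 of the 8651 genes, or 0.370%.

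IER2 lay at 54.6 to 77.8 CPM in STAT6 WT at 2 h (median 67.1, mean 66.6 ± 7.88) and at 26.7 to 56.6 CPM in STAT6 MUT (median 46.7, mean 44.9 ± 9.81, n = 9 each). D419G replicate 3 was the STAT6 MUT library that reached into the STAT6 WT range. The log2 fold change was -0.53 ± 0.11, with an edgeR adjusted p of 4.52e-04. JUNB lay at 28.8 to 51.9 CPM in STAT6 WT (median 43.9, mean 42.9 ± 7.27) and at 25.7 to 38.0 CPM in STAT6 MUT (median 31.4, mean 31.8 ± 4.23, n = 9 each). Here 7 STAT6 WT libraries were above every STAT6 MUT library, and all 9 STAT6 MUT libraries were below the STAT6 WT median. The log2 fold change of JUNB was -0.49 ± 0.11, with an edgeR adjusted p of 2.16e-03. That call was lost with the replicate number as a block (-0.43, edgeR adjusted p = 0.232).

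JUND, the AP-1 subunit that most cells express without a stimulus, lay at 17.4 to 42.7 CPM in STAT6 WT (median 28.2) and at 18.8 to 46.8 CPM in STAT6 MUT at 2 h (median 31.3). The ranges overlapped almost wholly. Its log2 fold change was 0.01 ± 0.15, with an edgeR adjusted p of 0.978, and its sign changed in 16 of 30 other ways of processing.

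The exact two-sided permutation test of log2 CPM, 9 libraries against 9, gave p = 4.1e-05 for DUSP2 and for MYC at 2 h, the smallest it can give. It gave 8.2e-05 for IER2 and 0.002 for JUNB. Adjusted over the 29 tests of members and times, these were 0.000596 for DUSP2 and MYC, 0.000795 for IER2, and 0.0143 for JUNB. The test exchanges single libraries without regard to line, so its p covers the spread between libraries and not that between transduced lines. The 2 h libraries lay in plate rows A (6 STAT6 WT, 6 STAT6 MUT) and B (3 of each). The difference in mean log2 CPM in rows A and B was -1.30 and -0.79 for DUSP2, -0.59 and -0.33 for MYC, -0.55 and -0.62 for IER2, and -0.33 and -0.55 for JUNB. Each of the 4 genes thus had a lower mean in STAT6 MUT in both rows. The summed level of the 13 B cell markers was also lower in STAT6 MUT at 2 h, at 3784 to 4118 CPM beside 4061 to 4909 CPM in STAT6 WT, and its part in these differences was not tested.

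**Figure D1:**
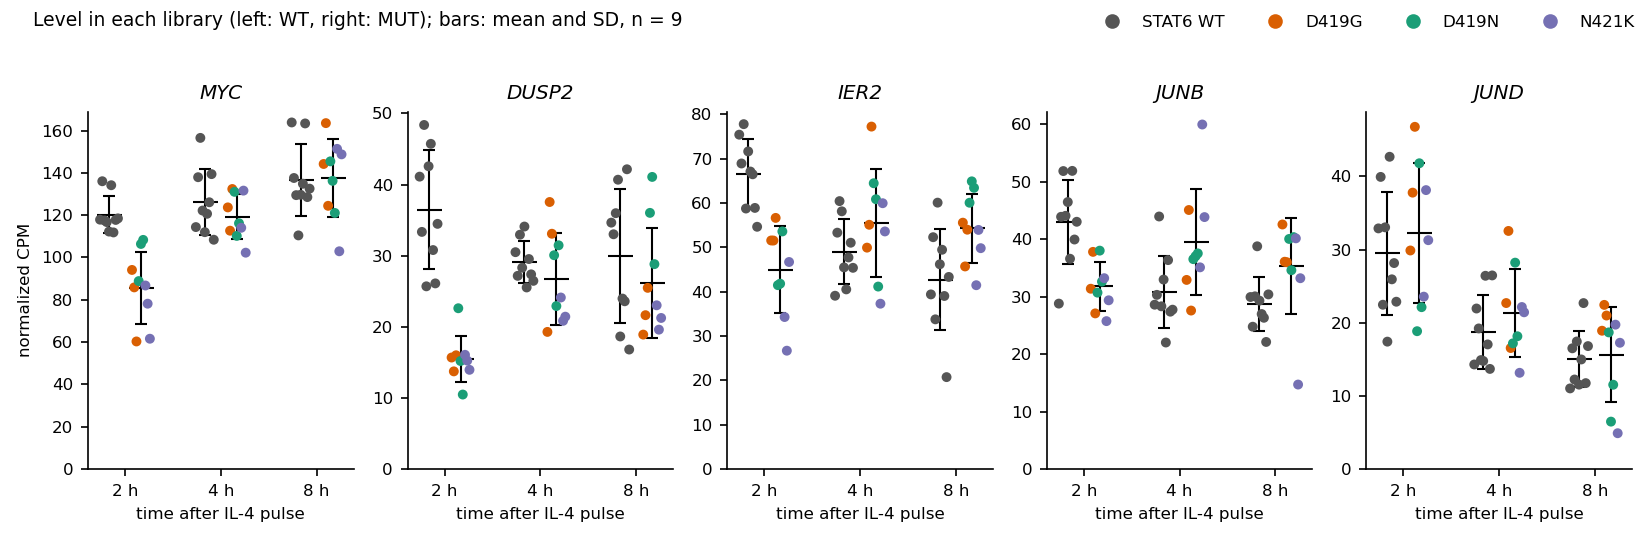
Normalized CPM of the 5 tested genes (y axis, linear from 0) in each of the 54 libraries at 2, 4, and 8 h (x axis), with STAT6 WT on the left and STAT6 MUT on the right of each pair. Points are libraries coloured by line and bars are the mean and SD (n = 9). At 2 h all STAT6 MUT points of MYC (60.3 to 108) and DUSP2 (10.5 to 22.6) lie below all STAT6 WT points, and from 4 h on the groups overlap.

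At 4 h and 8 h none of the 5 genes passed the edgeR test (0 of 5 at each), against 3.97% of all genes at 4 h and 1.44% at 8 h. At an unadjusted exact permutation p under 0.05, JUNB at 4 h (p = 0.024, adjusted 0.117) and IER2 at 8 h (p = 0.02, adjusted 0.114) differed, both with higher means in STAT6 MUT.

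MYC was at 126 ± 15.6 CPM in STAT6 WT and 119 ± 10.8 CPM in STAT6 MUT at 4 h, and at 137 ± 17.05 and 138 ± 18.5 CPM at 8 h (SD, n = 9 each). DUSP2 was at 29.1 ± 2.93 and 26.8 ± 6.43 CPM at 4 h, and at 29.9 ± 9.41 and 26.2 ± 7.72 CPM at 8 h. For both genes the ranges of the 2 genotypes overlapped at these times.

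JUNB was at 30.8 ± 6.30 CPM in STAT6 WT and 39.5 ± 9.30 CPM in STAT6 MUT at 4 h, with 8 of 9 STAT6 MUT libraries above the STAT6 WT median. At 8 h it was at 28.7 ± 4.68 and 35.3 ± 8.32 CPM, again with 8 of 9 above that median. Its log2 fold changes were 0.38 ± 0.13 and 0.37 ± 0.12, with edgeR adjusted p of 0.120 and 0.122. IER2 was at 49.0 ± 7.36 and 55.5 ± 12.1 CPM at 4 h, and at 42.7 ± 11.4 and 54.3 ± 7.82 CPM at 8 h. Its log2 fold change at 8 h was 0.36 ± 0.13, with an edgeR adjusted p of 0.178. JUND was at 18.8 ± 5.10 and 21.3 ± 6.05 CPM at 4 h, and at 15.0 ± 3.82 and 15.7 ± 6.42 CPM at 8 h.

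**Figure D2:**
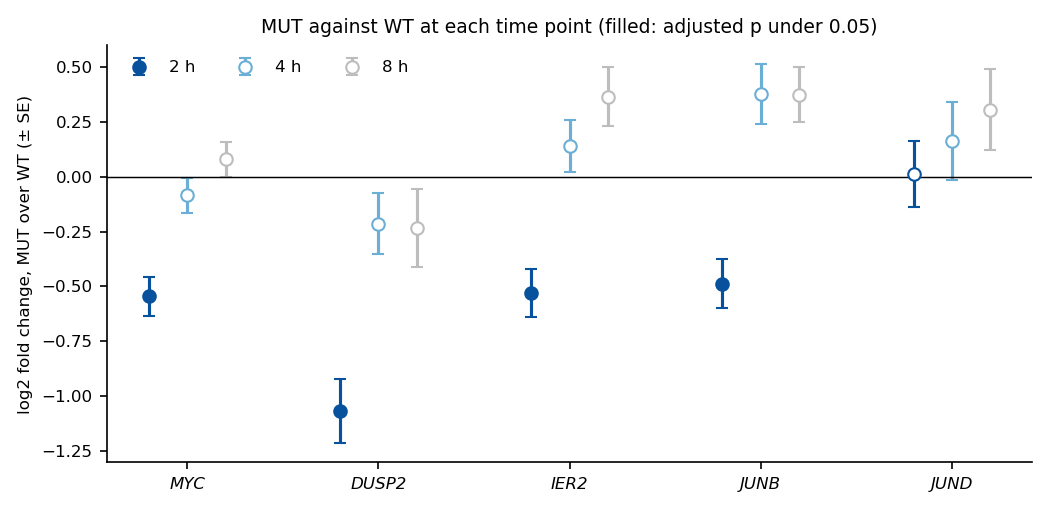
Log2 fold change of STAT6 MUT over STAT6 WT with its SE (y axis) for the 5 tested genes (x axis) at 2, 4, and 8 h. Filled points have an edgeR adjusted p under 0.05. They are the 2 h points of MYC, DUSP2, IER2, and JUNB, from -1.07 to -0.49, and every 4 h and 8 h point is open.

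The difference between the genotypes itself changed with time for the same 4 genes. The interaction of genotype and time point passed the edgeR test for JUNB (adjusted p = 1.28e-04, rank 15 of 9507 genes), MYC (1.05e-03, rank 28), IER2 (1.16e-03, rank 29), and DUSP2 (0.0279, rank 73), and not for JUND (0.848). It passed for 91 genes in all, or 0.957%. For DUSP2 the interaction was lost at adjusted p between 0.0514 and 0.0802 in 6 of 26 alternatives, namely without WT replicate 6 or 9, without replicate 3 of D419G, D419N, or N421K, and with the shallow libraries (under 0.5 of the median total) left out.

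Over the time points together, 2 of the 5 genes were lower in STAT6 MUT, against 6.62% of all 9261 genes tested. Such an average takes in 2 h, where both genes passed, and 4 h and 8 h, where neither did. DUSP2 had a mean of 22.8 ± 7.90 CPM in STAT6 MUT and 31.8 ± 7.91 in STAT6 WT (SD, n = 27 each). Its log2 fold change was -0.51 ± 0.10, with an edgeR adjusted p of 7.21e-05. MYC had means of 114 ± 26.7 and 128 ± 15.3 CPM, a log2 fold change of -0.17 ± 0.055, with an edgeR adjusted p of 0.0255. The MYC call was lost without WT replicate 2 (0.0693), D419G replicate 3 (0.0521), N421K replicate 3 (0.0824), or the whole N421K line (0.188). JUNB, JUND, and IER2 had log2 fold changes of 0.05, 0.13, and -0.04, none of which passed.

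Line by line over the time points, DUSP2 was lower than in STAT6 WT in N421K (log2 fold change -0.67 ± 0.13, edgeR adjusted p = 9.87e-05) and in D419G (-0.59 ± 0.15, 9.78e-03). In D419N it stood at -0.26 ± 0.14 (adjusted p = 0.427). The D419G call was lost without D419G replicate 1 (0.276). MYC was lower in N421K (-0.23 ± 0.075, adjusted p = 0.0243), a call lost without N421K replicate 2 (0.0502) or 3 (0.256), and it stood at -0.14 ± 0.082 in D419G and -0.12 ± 0.081 in D419N. JUND stood at 0.40 ± 0.14 in D419G (adjusted p = 0.0890) and passed without WT replicate 2 (0.0368) or with the plate row in the model (0.0265). That made 2 of 5 genes lower in N421K against 6.92% of all genes, 1 of 5 in D419G against 2.22%, and 0 of 5 called in D419N against 2.75%. These too are averages over the time points, and single lines were not tested at single time points.

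A test of the difference among the 3 mutant lines passed for 0 of the 5 genes, against 2.39% of all genes. The edgeR adjusted p was 0.255 for JUND, 0.391 for DUSP2, 0.420 for IER2, 0.785 for MYC, and 0.990 for JUNB. At 8 h DUSP2 was at 35.3 ± 6.16 CPM in D419N and at 22.0 ± 3.30 and 21.3 ± 1.71 CPM in D419G and N421K (n = 3 each), a spread that was not tested by itself.

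Levels also moved between the time points. In STAT6 WT libraries alone, JUNB fell from 42.9 CPM at 2 h to 30.8 at 4 h and 28.7 at 8 h, and IER2 fell from 66.6 to 49.0 and 42.7 CPM. In STAT6 MUT libraries alone, MYC rose from 85.6 CPM at 2 h to 119 at 4 h and 138 at 8 h, and DUSP2 rose from 15.4 to 26.8 CPM at 4 h and stood at 26.2 CPM at 8 h. JUND fell from 2 h to 8 h in both. Each time point lay in plate rows of its own, so the time point and the row cannot be told apart.

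From 2 h to 8 h in STAT6 WT, the log2 fold change was -0.59 ± 0.11 for JUNB (edgeR adjusted p = 3.01e-05), -0.68 ± 0.11 for IER2 (2.19e-06), and -1.02 ± 0.16 for JUND (5.31e-07). MYC stood at 0.17 ± 0.072 (0.0611) and DUSP2 at -0.20 ± 0.14 (0.280). In STAT6 MUT the same comparison gave 0.81 ± 0.090 for MYC (1.66e-10), 0.67 ± 0.16 for DUSP2 (6.34e-04), and -0.77 ± 0.17 for JUND (2.36e-04). JUNB and IER2 stood at 0.27 ± 0.13 (0.0963) and 0.22 ± 0.12 (0.162). Of all genes, 30.7% passed in STAT6 WT and 34.1% in STAT6 MUT, so calls of this kind were common.

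From 2 h to 4 h, JUNB changed by -0.48 ± 0.11 in STAT6 WT (edgeR adjusted p = 2.00e-03, with 13.0% of all genes called) and by 0.38 ± 0.13 in STAT6 MUT (0.0433, with 8.43% called). IER2 changed by -0.41 ± 0.11 in STAT6 WT (7.16e-03), and MYC and DUSP2 rose by 0.51 ± 0.092 (5.31e-05) and 0.63 ± 0.16 (4.90e-03) in STAT6 MUT. Between 4 h and 8 h MYC in STAT6 MUT was the 1 member that passed in either genotype, with 0.29 ± 0.089 (0.0197). In that step 5.88% of all genes passed in STAT6 WT and 11.9% in STAT6 MUT.

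**Figure D3:**
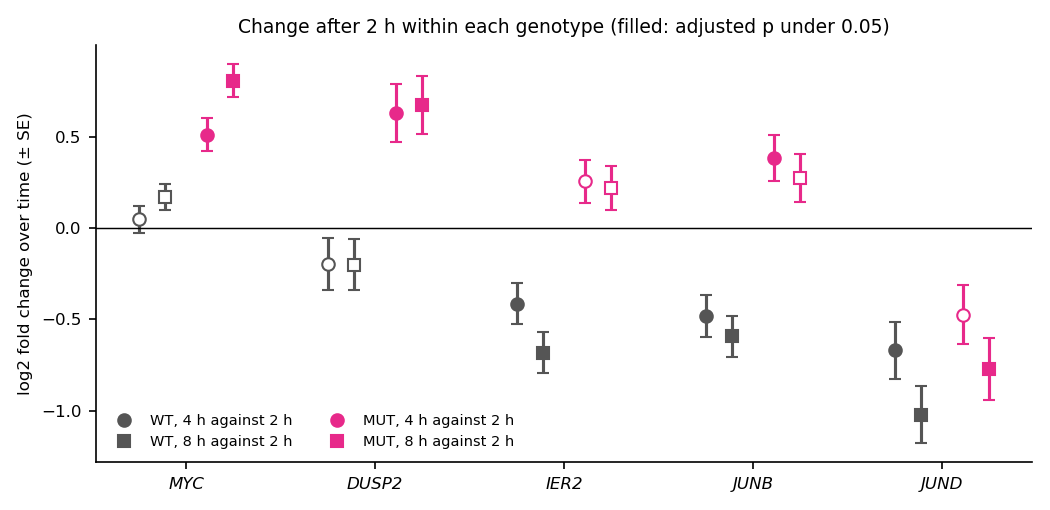
Log2 fold change from 2 h to 4 h (circles) and from 2 h to 8 h (squares) with its SE (y axis), fitted within STAT6 WT and within STAT6 MUT libraries, for the 5 tested genes (x axis). Filled points have an edgeR adjusted p under 0.05. From 2 h to 8 h JUNB and IER2 are at -0.59 and -0.68 in STAT6 WT and at 0.27 and 0.22 in STAT6 MUT, while JUND is at -1.02 and -0.77.

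With both genotypes in 1 fit, from 2 h to 8 h 3 of 5 members passed, against 46.4% of all genes, namely MYC (0.45 ± 0.066, edgeR adjusted p = 1.79e-08), JUND (-0.90 ± 0.12, 5.06e-10), and IER2 (-0.28 ± 0.097, 0.0133). The IER2 call was lost without WT replicate 3 (0.0656) or 8 (0.0666). JUNB stood at -0.21 ± 0.098 (0.0772) and passed when any of 6 mutant replicates was left out, with adjusted p from 0.0387 to 0.0480. From 2 h to 4 h MYC (0.25) and JUND (-0.58) passed, 2 of 5 against 22.2%. In STAT6 WT alone MYC stood at 0.05 ± 0.074 in that step (0.718), and in STAT6 MUT alone JUND stood at -0.47 ± 0.16 (0.0561). From 4 h to 8 h MYC passed (0.20 ± 0.066, 0.0234), 1 of 5 against 19.0%. That MYC call was lost with DESeq2 (0.0549) and without WT replicate 1 (0.0671) or 7 (0.0567), D419G replicate 2 (0.0558), or N421K replicate 1 (0.0563) or 3 (0.0576). JUND stood at -0.33 ± 0.13 (0.0739) in that step and passed without WT replicate 7 (0.0395) or N421K replicate 1 (0.0343), and with limma-voom (0.0416).

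Of the heat shock and handling genes, a list of 16 with 14 in the table, 8 of 12 tested rose from 2 h to 8 h and 0 fell, beside 23.5% of all genes that rose. The summed level of the 14 had a median of 5317 CPM in STAT6 WT and 5568 in STAT6 MUT at 2 h, and of 8405 and 7931 CPM at 8 h. Their part in the time courses was not tested. At 2 h their ranges in the genotypes overlapped (4988 to 5796 and 5319 to 6353 CPM), and so did the share of mitochondrial UMIs (4.52 to 6.23% and 5.58 to 6.72%).

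Other immediate early genes were read from a list of 44, of which 22 were tested. The list was written with earlier results of these data known, so its counts are a description and not an independent test. At 2 h, 8 of the 22 passed, 7 lower and 1 higher in STAT6 MUT, and the median log2 fold change of the 22 was -0.21, beside 0.01 over all genes, of which 8.59% passed in either direction. ID3, an inhibitor of basic helix-loop-helix factors, was lower by the most (-1.11 ± 0.098, edgeR adjusted p = 8.09e-13). TRIB1, a pseudokinase, was at -0.74 ± 0.20 (9.34e-03), and BTG2, an antiproliferative gene, at -0.64 ± 0.080 (3.81e-08). CCNL1, a cyclin of RNA processing, was the 1 that was higher (0.35 ± 0.091, 7.20e-03). The other 4 that passed, named after their values were seen, were GADD45B (-0.86 ± 0.11), ZFP36L2 (-0.40 ± 0.070), ZFP36L1 (-0.37 ± 0.067), and SRF (-0.27 ± 0.078). ZFP36L1 and ZFP36L2 bind AU-rich mRNAs and promote their decay, and SRF is the factor that binds CArG boxes.

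Over the time points together, 6 of the 22 passed, beside 13.4% of all genes called in either direction. ID3 (-0.53 ± 0.065), TRIB1 (-0.38 ± 0.099), and BTG2 (-0.26 ± 0.053) were lower, and IRF1 (0.41 ± 0.11), ID2 (0.34 ± 0.054), and CCNL1 (0.25 ± 0.056) were higher, with a median of 0.01 over the list. Interferon regulatory factor IRF1 was higher at 4 h (0.71 ± 0.18, edgeR adjusted p = 0.0105) and ID2, the relative of ID3, at 4 h and 8 h (0.43 and 0.48). ID3 was still lower at 4 h (-0.29, edgeR adjusted p = 0.0432) and did not pass at 8 h (-0.26, 0.102). GADD45B, lower at 2 h, was higher at 8 h (0.48 ± 0.10, 4.26e-03). The interaction of genotype and time passed for 5 of the 22, beside 0.957% of all genes.

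**Figure D4:**
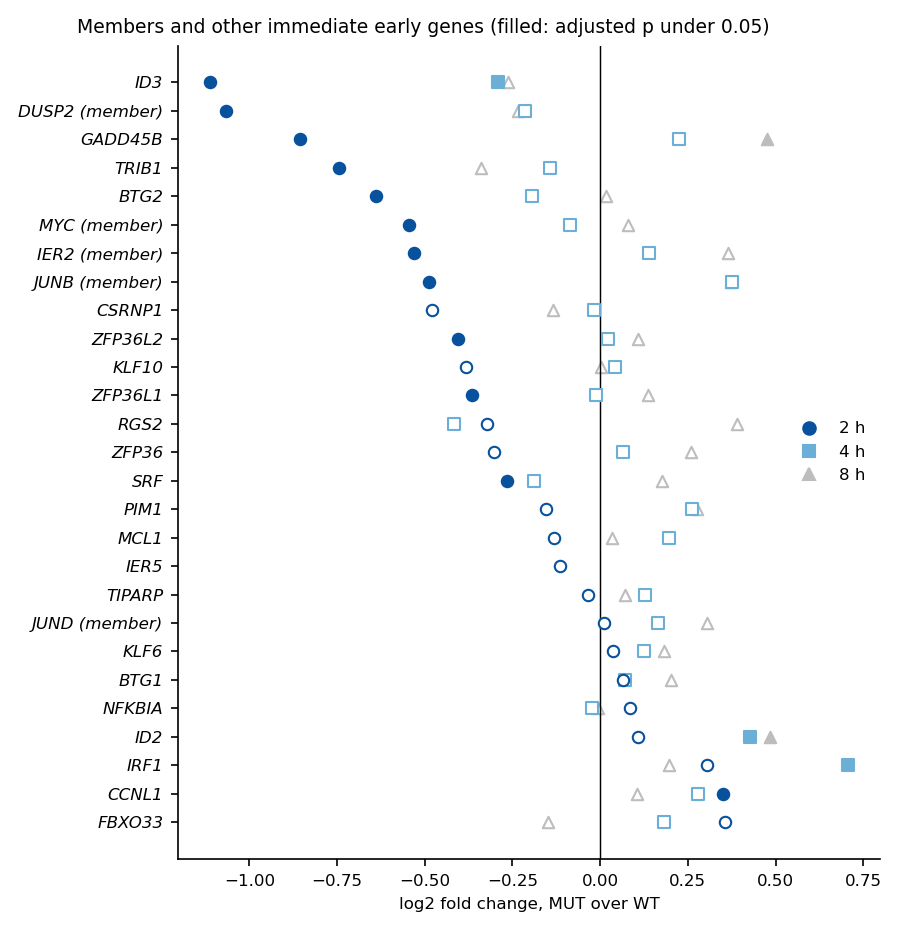
Log2 fold change of STAT6 MUT over STAT6 WT (x axis) at 2, 4, and 8 h for the 5 tested members and the 22 other immediate early genes tested at 2 h, of which 21 were also tested at 4 h and at 8 h (y axis, ordered by the 2 h value). Filled symbols have an edgeR adjusted p under 0.05. Most filled symbols are 2 h points below 0, led by ID3 (-1.11) and DUSP2 (-1.07).

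Genes around MYC were read the same way. Of 9 tested partners and antagonists of MYC, 1 passed at 2 h, the repressor MNT (-0.47 ± 0.15, edgeR adjusted p = 0.0344, named after its value was seen), and 0 passed over the time points. Of 30 MYC target genes, 4 were lower and 0 higher at 2 h, with a median of -0.09, and 5 passed over the time points, 4 of them lower. Of all genes, 4.67% were lower at 2 h and 13.4% were called over the time points, so the latter count is near the background share. The ribosome biogenesis genes RRS1 (-0.21 ± 0.056, 4.19e-03) and NOP16 (-0.20 ± 0.046, 1.04e-03) and the spermidine synthase SRM (-0.18 ± 0.041, 1.19e-03) were lower, and lactate dehydrogenase LDHA was higher (0.11 ± 0.035, 0.0252). From 2 h to 8 h, 18 of the 30 target genes rose and 2 fell, beside 23.5% of all genes that rose and 22.9% that fell. The interaction of genotype and time passed for 0 of the 30.

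Of 23 other AP-1 subunits and partners, 14 were tested over the time points, and JDP2 (-0.28 ± 0.095, edgeR adjusted p = 0.0369) and BACH2 (-0.18 ± 0.048, 6.60e-03), both repressors that pair with AP-1 or Maf proteins, were lower in STAT6 MUT. At 2 h 0 of 13 passed. Of 20 tested genes of the MAP kinase cascade and its feedback, ELK3 (-0.63 ± 0.15, 1.50e-03), a partner of SRF, and MAP2K3 (-0.23 ± 0.063, 5.99e-03), a p38 kinase kinase, were lower over the time points, and at 2 h 1 of 17 passed. Among the 12 tested stress genes HSPA8 was lower (-0.12 ± 0.036, 0.0162). Of the 13 B cell markers, 7 passed over the time points, with BCL6 (0.40 ± 0.042) and MME (0.28 ± 0.044) higher, and CD38 (-0.39 ± 0.12), CD22 (-0.33 ± 0.036), and CD79B (-0.28 ± 0.049) lower among them. All these counts over the time points stand beside the same 13.4% of all genes, and those at 2 h beside 8.59%. The counts of AP-1 partners, kinase cascade genes, and stress genes are thus near or below the background share.

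The genes whose mean log2 CPM over the 12 groups of line and time was most like that of MYC were ID3 (Pearson r = 0.96), ARHGEF2 (0.95), and METTL1 (0.95). For DUSP2 they were IL4R (0.88), RCC1 (0.87), and IARS1 (0.87). These are the highest of 9260 genes compared over only 12 points that share libraries, and are given as a description. Among the 10 pairs of tested members r over the same 12 groups ran from -0.77 to 0.74. It was 0.74 for MYC and DUSP2, 0.61 for JUNB and IER2, and -0.77 for MYC and JUND.

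The 5 genes that the filter left out were at the limit of detection. JUN, the founding AP-1 subunit, had 83 UMIs in 36 of 54 libraries and at most 6 in any one. Rates of these genes are CPM without TMM scaling. JUN had 1.49 CPM in STAT6 WT (46 UMIs, exact Poisson 95% limits 1.09 to 1.99) and 1.51 in STAT6 MUT (37 UMIs, 1.06 to 2.08), and the mutant lines were unlike each other. D419G had 14 UMIs (2.09 CPM, 1.14 to 3.51) and N421K had 22 (2.09, 1.31 to 3.16). D419N had 1 UMI in 9 libraries (0.136 CPM, 0.00345 to 0.759). JUN was seen in 1 of the 9 D419N libraries, 6 of 9 of D419G, 9 of 9 of N421K, and 20 of 27 of STAT6 WT. The ratio of D419N to STAT6 WT was 0.0914 (exact 95% limits 0.00227 to 0.536), which covers counting error only.

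With no filter on low counts, the edgeR test of JUN among the 3 mutant lines had an adjusted p of 0.0290, N421K against D419N had 0.0207, and D419N against STAT6 WT had 0.0605 (log2 fold change -2.66 ± 0.76). The difference between D419N and STAT6 WT thus did not pass after adjustment over all genes.

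FOSB, the FOS relative, had 13 UMIs in the 9 STAT6 WT libraries of 2 h, in 6 of them (1.13 CPM, 0.604 to 1.94), then 2 at 4 h and 1 at 8 h (0.0937 CPM, 0.00237 to 0.522). In STAT6 MUT it had 4 at 2 h (0.408 CPM, 0.111 to 1.05), 6 at 4 h, and 6 at 8 h (0.828, 0.304 to 1.80). The direction at 2 h and 8 h was opposite, but with no filter the edgeR adjusted p was 0.431 at 2 h and 0.361 at 8 h, and 0.233 for the interaction. EGR2 had 5 UMIs at 2 h, 1 at 4 h, and 0 of 17915797 at 8 h, which allows up to 0.167 CPM by the floor of 3 counts. FOS had 7, 10, and 4 UMIs in STAT6 WT at 2, 4, and 8 h and 5, 4, and 6 in STAT6 MUT, and 6 of the 10 at 4 h came from 1 library. EGR1 had 5, 1, and 3 UMIs in STAT6 WT and 5, 3, and 2 in STAT6 MUT. No exact permutation test of these 5 genes passed at any time after adjustment (adjusted p from 0.510 to 1).

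**Figure D5:**
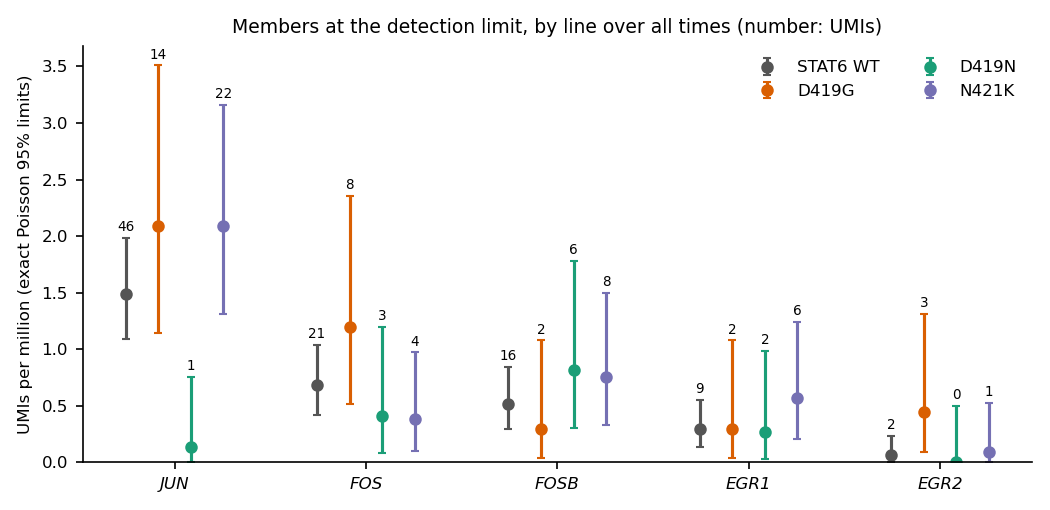
UMIs over the library total, as CPM without TMM scaling, over all time points (y axis, linear from 0; points with exact Poisson 95% limits as lines) for the 5 genes below the filter (x axis) in STAT6 WT (27 libraries) and in each mutant line (9 libraries each). Numbers above the lines are UMIs. JUN has 1 UMI in D419N beside 46, 14, and 22 in the other lines.

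On GRCh38 with GENCODE 44, MYC has 3 exons on chromosome 8 (127735434 to 127742951, plus strand), and DUSP2 has 4 on chromosome 2 (96143169 to 96145440, minus strand). JUNB, JUND, IER2, and FOSB all lie on chromosome 19. JUNB lies within the span of HOOK2 on the opposite strand, FOSB within that of ERCC1, and MYC and IER2 overlap long noncoding RNAs on the opposite strand. Whether the counting used strand is not stated, so reads of such partners cannot be told apart. EGR2 overlaps a long noncoding RNA on its own strand, which counting by strand would not separate. DUSP2 and JUND overlap no other annotated gene.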

How the data were processed

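RNA of 54 OCI-Ly1 samples was profiled by prime-seq, a bulk method that tags each molecule at its 3′ end. The authors deposited a table of UMI counts for each gene in each library, neither normalized nor pooled, made from Illumina reads by the Drop-seq tools. The submitters' processing notes name the build hg 38. The aligner, the annotation, and whether strand was used are not stated. Groups were taken from the sample labels, which call replicates biological. Of 31835 identifiers 30959 matched a symbol.

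Counts were tested with edgeR 4.0.16 in R 4.3.3 (quasi-likelihood test, TMM, filterByExpr with the design, Benjamini-Hochberg adjustment over all genes tested, threshold 0.05). The genotype fit over times held time point and genotype, the line and time fits time point and line, and the interaction the 6 groups. Each time point was also fitted alone. An SE is the log2 fold change over the square root of F. DESeq2 1.42.0, limma 3.58.1, other scalings and filters, and leaving out replicates, lines, or shallow libraries served as alternatives. Log2 CPM used a prior count of 2. Exact permutation tests were two-sided. Figures were drawn with matplotlib 3.10.9.

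The members and gene lists were chosen with earlier results of these data known. Beside the members, the text names up to 3 genes per direction of each list with the largest fold among those called over the time points, the 3 nearest patterns of called members, and cell type markers. Scripts were tested on simulated data. Totals ran from 161518 to 2978715 UMIs, and intervals and floors (3 counts for a count of 0) cover counting error only.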

Additional observations from a re-analysis of the deposited data

Results flagged for a closer look

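The difference between STAT6 MUT and STAT6 WT differed between 2, 4, and 8 h for 4 genes by edgeR's interaction test, with adjusted p of 1.28e-04 for JUNB, 1.05e-03 for MYC, 1.16e-03 for IER2, and 0.0279 for DUSP2. For JUNB and IER2 the means were lower in STAT6 MUT at 2 h (74.0% and 67.4% of STAT6 WT) and higher at 8 h (123% and 127%), the 8 h differences not passing the test. For MYC and DUSP2 the means in STAT6 MUT were 71.2% and 42.3% of STAT6 WT at 2 h and 101% and 87.5% at 8 h.

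Of 30 groups of 9 libraries, 3 held a library far from the others. Chance gives about 1 in 20. DUSP2 was at 22.6 CPM (42 UMIs) in D419N replicate 1 at 2 h, beside 16.1 in the next STAT6 MUT library, and that library was still below every STAT6 WT library. JUNB was at 38.8 CPM (20 UMIs) in WT replicate 4 at 8 h, beside 30.4 in the next. JUNB was at 14.7 CPM in N421K replicate 2 at 8 h, beside 33.2 in the next, and this value rests on 3 UMIs of a library of 191586.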

How the results depend on the processing

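Of 1705 values of the 5 tested genes under other settings, 1622 kept their direction and side of the threshold. A further 41 changed sign, whether or not they also crossed the threshold. Without a change of sign, 26 no longer passed and 16 newly passed. MYC, IER2, and DUSP2 stayed lower at 2 h in 30 of 30 alternatives (highest adjusted p 0.00889, 0.0487, and 1.84e-04) and JUNB in 29. DUSP2 over the time points stayed lower in 30 of 30 (highest 0.0184).

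Same-numbered libraries showed little sign of pairing. Of such pairs, 4 of 54 of a line at different times and 8 of 54 of different lines at the same time correlated above 0.1. Counting noise in shallow libraries lowers such correlations, so the check cannot exclude pairing. Replicate numbers 4 to 9 exist for STAT6 WT only, so with a block for each number those libraries carry no comparison of the genotypes. The effect of the block and that of fewer compared libraries thus cannot be told apart. With the number as a replicate block, 3 members instead of 4 passed at 2 h, JUNB being lost (-0.43, edgeR adjusted p = 0.232). All genes called fell from 743 to 200 at 2 h, 1237 to 607 over the time points, 342 to 61 at 4 h, and 127 to 19 at 8 h. The block turned MYC at 8 h to -0.0060 and JUND at 2 h to -0.036. Without N421K these 4 counts of genes were 291, 586, 93, and 74, and 239 passed at 8 h with no filter.

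The members called over the time points went from 2 to 1 without N421K and ranged from 1 to 2 without single replicates, from 0 to 2 (reported 1) for D419G and from 1 to 2 for N421K. Plate row in the model gave 2 for D419G. From 4 h to 8 h the 1 call became 0 with DESeq2 or STAT6 WT alone, 2 with limma-voom, and 0 to 1 without single replicates.

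Values whose sign changed were mostly near 0. IER2 over the time points was 0.060 without N421K and -0.077 to 0.0079 without single replicates. JUND at 2 h was -0.011 with total counts only, -0.0050 with limma-voom, -0.0025 without shallow libraries, -0.12 without D419G, -0.039 without N421K, and -0.076 to 0.13 without single replicates. JUNB in D419N was -0.032 with plate row. Without single replicates JUNB in D419G ran from -0.036 to 0.11, JUND in D419N from -0.29 to 0.050, and IER2 in D419N from -0.023 to 0.10. From 4 h to 8 h DUSP2 was -0.0041 with DESeq2 size factors, -0.045 with limma-voom, -0.0025 in STAT6 WT alone, -0.032 with line and replicate number as a block (chosen after seeing the data), and -0.055 to 0.060 without single replicates.

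Genotypes alone turned the pooled time courses: from 2 h to 4 h JUNB and IER2 were 0.38 and 0.26 in STAT6 MUT and DUSP2 -0.20 in STAT6 WT, and from 2 h to 8 h 0.27, 0.22, and -0.20. Where a setting does not itself drop samples or change the count of genes, the cause was not tested. Depth limits JUN, FOS, FOSB, EGR1, and EGR2, with 6 to 83 UMIs each.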
